A study of Gallus gallus with 12 samples.

Results

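Peaks of methylation-enriched DNA on chicken chromosomes 6, 7, 8, 9 and 10, the intermediate chromosomes between the large macrochromosomes and the small microchromosomes, were described in liver. They were all peaks on these 5 chromosomes in 6 lists, 59010 of the 356324 peaks in all, chosen by position alone. The lists came from chickens recorded as resistant to ALV-J, the J subgroup of avian leukosis virus (3 libraries), and chickens recorded as susceptible to it (3 libraries). The labels give liver as the tissue and the study's purpose as a comparison of DNA methylation between the 2 groups. They give no breed, age or sex, no infection or treatment, and do not say that each library is a separate bird, so p-values measure the spread between these samples. Another 6 libraries were inputs, DNA sequenced without enrichment, 1 per sample number. They were the background against which each list was called and have no values of their own here. Peak lists hold no marker genes, so the labelled tissue could not be checked.

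Methylated DNA immunoprecipitation (MeDIP) recovers DNA fragments with an antibody against methylated cytosine, and a peak is a stretch where the recovered fragments exceed the input. In vertebrates most methylated cytosines lie in CpG pairs, and MeDIP recovers a fragment more readily the more methylated CpGs it carries, so a peak reflects both CpG density and methylation. The chicken genome is split into a few large chromosomes, a group of middle size and many small ones, and the small ones are known to be richer in genes, in GC and in CpG. ALV-J is a retrovirus of chickens that causes tumours.

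Resistant replicates 1 to 3 held 10938, 10367 and 9056 peaks on chromosomes 6 to 10, and susceptible replicates 1 to 3 held 9237, 10528 and 8884. These were 16.0 to 16.9% of each list, on 14.3% of the measured chromosome length. Positions are on galGal4, counted from 1, and the length of a chromosome is the highest peak end in any list, a lower bound. By this measure chromosome 6 had 35.0 Mb, chromosome 7 36.2 Mb, chromosome 8 28.8 Mb, chromosome 9 23.4 Mb and chromosome 10 19.9 Mb. How deeply the libraries were sequenced is unknown, so the absence of a peak says only that none passed the authors' threshold. Resistant replicate 3 and susceptible replicate 3 stood apart from the other libraries before any comparison. Peaks covered 65.3 to 68.1 kb per Mb of the sex chromosome Z in these libraries, against 29.9 to 31.8 kb per Mb in the other 4. The same 2 libraries had the fewest and the widest peaks on chromosomes 6 to 10.

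Covered length rose in the order 6, 7, 8, 9, 10, and the 5 chromosomes fell into 3 levels. Chromosome 10 had the highest coverage, with 71.95, 69.0 and 69.0 kb per Mb in resistant libraries and 64.0, 71.6 and 71.2 kb per Mb in susceptible libraries. Chromosome 9 had 59.7, 57.9 and 57.0 kb per Mb in resistant libraries and 53.6, 59.1 and 58.5 kb per Mb in susceptible libraries. Chromosome 8 had 58.1, 55.2 and 55.2 kb per Mb in resistant libraries and 51.7, 58.6 and 57.3 kb per Mb in susceptible libraries. On each of these chromosomes the ranges of the groups overlapped, and susceptible replicate 1 was the lowest library. Chromosome 7 had 41.1, 39.4 and 37.7 kb per Mb in resistant libraries and 35.95, 41.1 and 38.3 kb per Mb in susceptible libraries. Chromosome 6 had 40.5, 38.6 and 37.5 kb per Mb in resistant libraries and 35.5, 40.5 and 38.3 kb per Mb in susceptible libraries. Susceptible replicate 1 was lowest there too, and the groups overlapped again.

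The order held within every library. Chromosome 10 exceeded chromosome 9 by 11.8 ± 0.877 kb per Mb, and chromosome 8 exceeded chromosome 7 by 17.1 ± 1.199 kb per Mb (SD of the paired difference over 6 libraries). The steps inside the levels were small, with chromosome 9 above chromosome 8 by 1.59 ± 0.725 kb per Mb and a difference of -0.460 ± 0.277 kb per Mb for chromosome 6 minus chromosome 7. Each of the 4 steps had the same sign in 6 of 6 libraries (exact sign-flip permutation test over libraries, two-sided, adjusted p = 0.0312, the smallest that 6 libraries allow). Coverage did not follow chromosome size step by step, since chromosome 7 was longer than chromosome 6 by the measured length and had the higher coverage.

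Peak number separated the same levels. Over the 6 libraries chromosome 10 had 89.97 ± 7.19 peaks per Mb, chromosomes 9 and 8 had 76.9 ± 6.47 and 76.9 ± 6.40, and chromosomes 7 and 6 had 56.8 ± 6.06 and 56.5 ± 5.37 (mean ± SD, n = 6). Neighbouring peaks lay closest on chromosome 10, with a median distance of 2452 ± 128 bp, and next closest on chromosome 8 with 2653 ± 187 bp and chromosome 9 with 2941 ± 235 bp. On chromosome 7 the median distance was 4281 ± 304 bp and on chromosome 6 4225 ± 168 bp, a difference of -55.4 ± 183 bp for chromosome 6 minus chromosome 7 whose sign varied between libraries (exact sign-flip permutation test, adjusted p = 0.438, n = 6). The other neighbouring chromosomes differed in spacing in every library (exact sign-flip permutation tests, adjusted p = 0.0417, n = 6). Peaks lay 287 ± 132 bp further apart on chromosome 9 than on chromosome 8, although covered length was higher on chromosome 9.

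Peak width differed less between the chromosomes than spacing did. Median width was 594 ± 42.9 bp on chromosome 10, 575.5 ± 41.2 bp on chromosome 9, 588 ± 39.6 bp on chromosome 8, 545 ± 39.9 bp on chromosome 7 and 543 ± 37.4 bp on chromosome 6 (n = 6). Mean width, which long peaks raise, was 701 to 838 bp on chromosome 9 and 681 to 813 bp on chromosome 8. Resistant replicate 3 and susceptible replicate 3 were the widest of their groups on every one of the 5 chromosomes. On chromosome 6, for example, they had medians of 576 and 600 bp, against 505 to 538 bp in the other 4 libraries. Whether the split on Z had a part in this width difference was not tested. Median width was lower on chromosome 9 than on chromosome 8 in 5 of 6 libraries, by 12.9 ± 10.6 bp, and this did not pass the test (exact sign-flip permutation test, adjusted p = 0.0833, n = 6). Chromosomes 6 and 7 differed by -2.33 ± 4.77 bp (exact sign-flip permutation test, adjusted p = 0.375, n = 6). Chromosome 10 exceeded chromosome 9 by 18.2 ± 5.41 bp and chromosome 8 exceeded chromosome 7 by 43.1 ± 8.05 bp, in 6 of 6 libraries each. These steps did not pass after adjustment either (exact sign-flip permutation tests, p = 0.0312, adjusted p = 0.0625, n = 6).

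**Figure D1:**
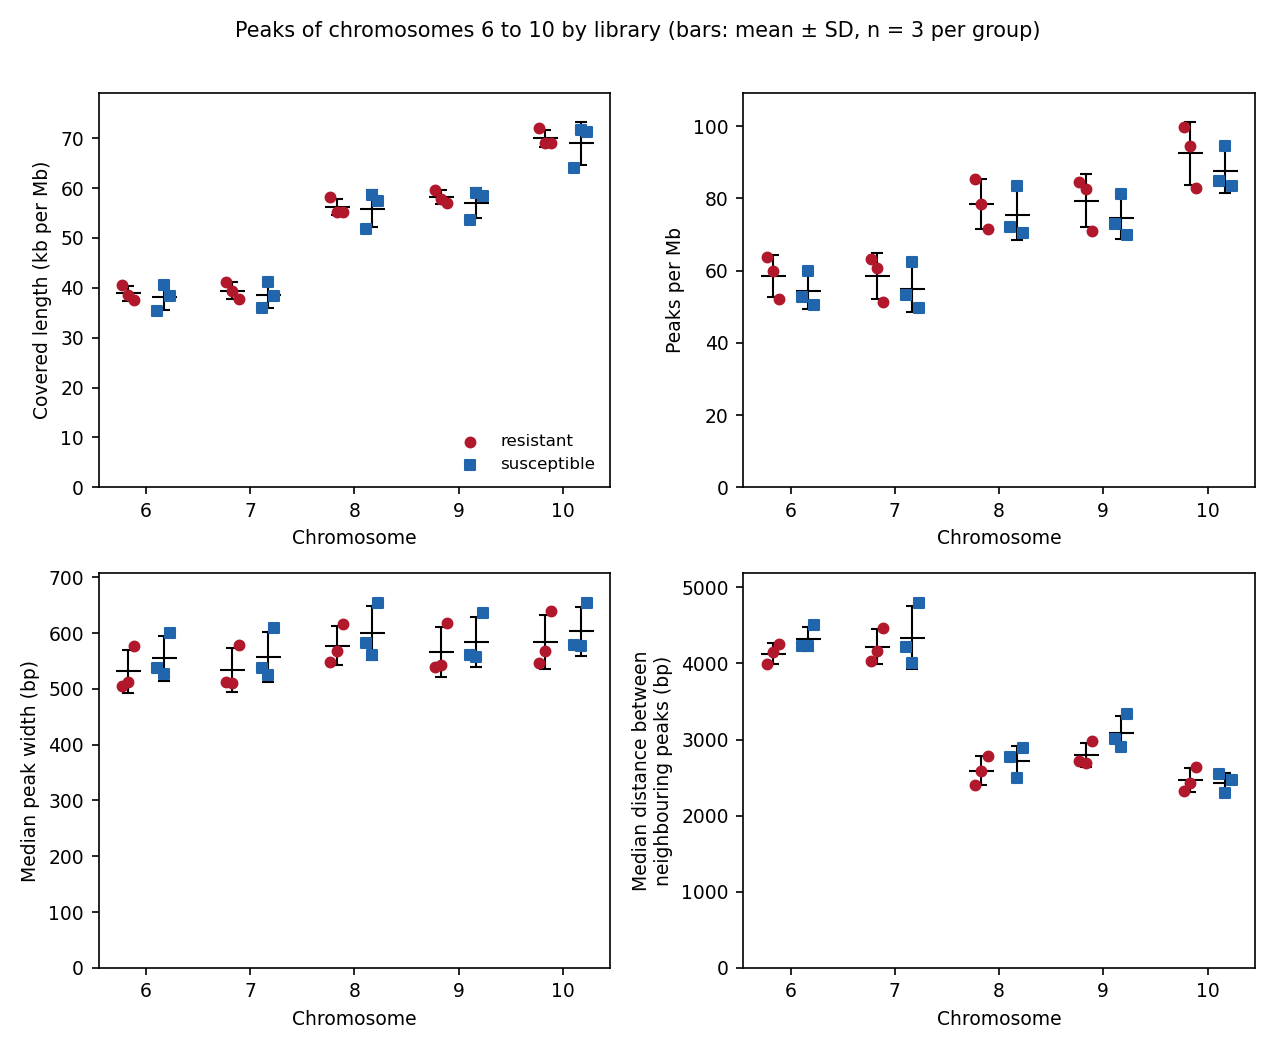
Covered length (kb per Mb), peaks per Mb, median peak width (bp) and median distance between neighbouring peaks (bp) for chromosomes 6 to 10. Each point is 1 library (red circles resistant, blue squares susceptible), with the mean ± SD of each group (n = 3). Chromosomes 6 and 7 lie at about 39 kb per Mb, chromosomes 8 and 9 near 57 kb per Mb and chromosome 10 near 69 kb per Mb, and the groups overlap throughout.

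The intermediate chromosomes stood between the 2 most similar classes in covered length, peak number, spacing and width. Peaks covered 49.6 ± 2.20 kb per Mb on chromosomes 6 to 10, 25.2 ± 1.24 kb per Mb on chromosomes 1 to 5 and 107 ± 3.65 kb per Mb on chromosomes 11 to 28 (n = 6 libraries). The difference was 24.4 ± 1.06 kb per Mb from chromosomes 1 to 5 and -57.9 ± 1.82 kb per Mb from chromosomes 11 to 28. It was 25.8 and -88.4 kb per Mb when every chromosome counted equally whatever its length. Median spacing was 3221 ± 190 bp on chromosomes 6 to 10, against 7502 ± 648 bp on chromosomes 1 to 5 and 1826 ± 78.1 bp on chromosomes 11 to 28. Median width was 569 ± 39.3 bp on chromosomes 6 to 10, against 519 ± 35.4 bp and 633 ± 44.9 bp on the large and the small chromosomes. Of the distances between neighbouring peaks, 27.3% were under 1 kb on chromosomes 6 to 10, against 18.2% on chromosomes 1 to 5 and 36.1% on chromosomes 11 to 28. Each of these differences had the same sign in 6 of 6 libraries (exact sign-flip permutation tests, adjusted p = 0.0312, n = 6). Like the other sign-flip tests here, these cover the spread between libraries, not that between the chromosomes of a class. Without resistant replicate 3 and susceptible replicate 3 the differences in covered length were 24.2 and -57.1 kb per Mb, in 4 of 4 libraries each, where the smallest p an exact sign-flip test allows is 0.125.

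The authors' score of a peak ran from 80 to 3233.06 on chromosomes 6 to 10 and follows the caller's p-value, so it depends on depth and was ranked only within a list. The median peak of chromosomes 6 to 10 stood at the 48.1 ± 0.513 percentile of its own list, against 44.2 ± 0.601 on chromosomes 1 to 5 and 55.8 ± 0.571 on chromosomes 11 to 28 (n = 6 libraries, exact sign-flip permutation test, adjusted p = 0.0312 for both). Among peaks at or above the pooled median score these differences of 3.89 and -7.67 became 0.946 and -2.78. That cut was made on the score itself and narrows the range of percentiles, so the sizes before and after it are not comparable. By chromosome the median percentile was 45.3 on chromosome 6, 44.9 on chromosome 7, 50.5 on chromosome 8, 49.2 on chromosome 9 and 51.0 on chromosome 10. Chromosome 8 exceeded chromosome 7 by 5.66 ± 0.994 and chromosome 10 exceeded chromosome 9 by 1.74 ± 1.48, in 6 of 6 libraries each. The sign of the other steps varied between libraries, with 0.485 ± 1.47 for chromosome 6 minus 7 and -1.29 ± 2.07 for chromosome 9 minus 8. The first 2 steps had an unadjusted p of 0.0312, the smallest that 6 libraries allow (exact sign-flip permutation tests). After adjustment no step between neighbouring chromosomes passed (the same tests, adjusted p = 0.0625 to 0.438, n = 6). The strongest peaks could not be ranked among themselves, since 145 to 216 peaks of each list on these chromosomes carried a score of exactly 3100 and only 11 to 15 a higher one. In 110 regions a peak at or above 3100 was present in all 6 libraries. There were 18 such regions on chromosome 6, 24 on chromosome 7, 19 on chromosome 8, 26 on chromosome 9 and 23 on chromosome 10. Per Mb this was 0.768 on chromosomes 6 to 10, against 0.465 on chromosomes 1 to 5 and 2.10 on chromosomes 11 to 28. By share the order was different, with chromosomes 6 to 10 lowest. Such regions were 2.20% of their regions found in all 6 libraries, against 2.53% on the large and 2.92% on the small chromosomes. Peaks at exactly 3100 were 1.88 ± 0.195% of peaks on chromosomes 6 to 10, against 2.17 ± 0.219% and 2.74 ± 0.184%. These shares carry no test.

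Peaks were spread unevenly over the 1 Mb windows. Over the 140 complete windows of the 5 chromosomes the median window had 27.4 kb per Mb and the extremes were 1.04 and 245 kb per Mb (means over 6 libraries). In 18 windows (12.9%) peaks covered at least 100 kb, and these windows held 42.1% of the covered length of all complete windows. On chromosomes 1 to 5, 17 of 602 windows (2.82%) reached 100 kb, and on chromosomes 11 to 28, 81 of 163 (49.7%) did. The highest 10% of windows in a class held 35.3% of the covered length on chromosomes 6 to 10. This share was 37.3% on chromosomes 1 to 5 and 25.3% on chromosomes 11 to 28. Windows under 10 kb numbered 13 (9.29%) on chromosomes 6 to 10, against 162 (26.9%) and 8 (4.91%) on the large and the small chromosomes. The 18 high windows were spread over all 5 chromosomes, with 3 on chromosome 6, 2 on chromosome 7, 5 on chromosome 8, 4 on chromosome 9 and 4 on chromosome 10.

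**Figure D2:**
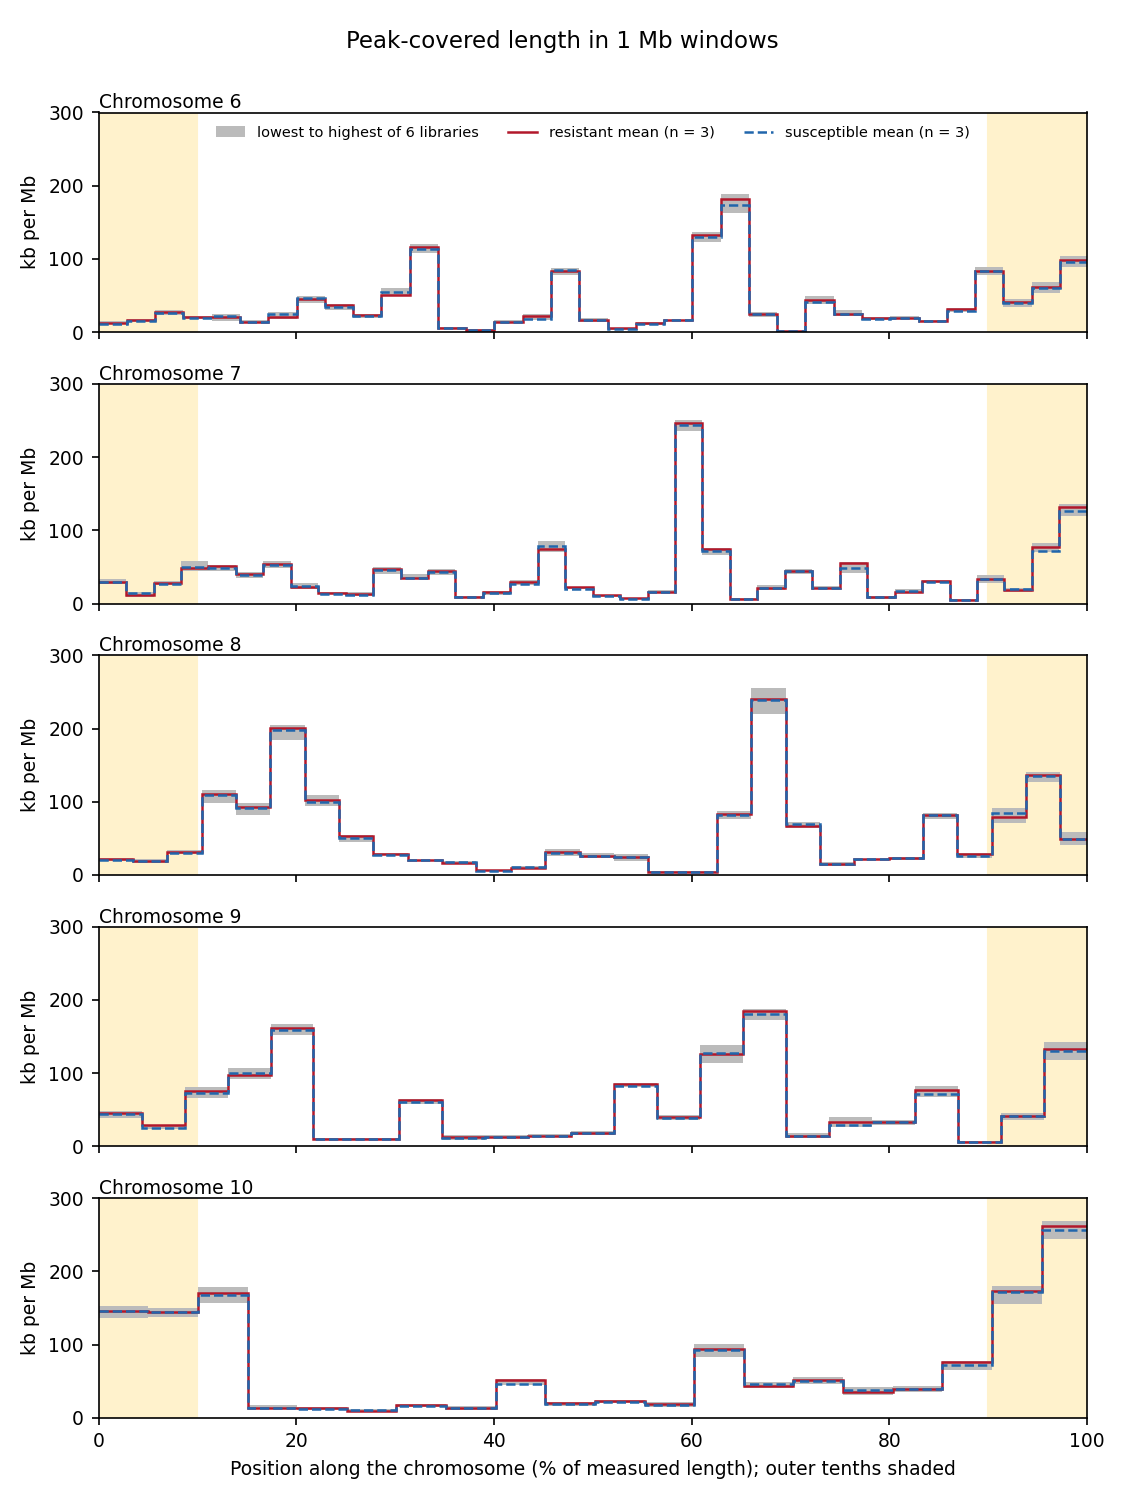
Peak-covered length (kb per Mb) in 1 Mb windows along chromosomes 6 to 10, with position as a percentage of the measured length. Grey bands run from the lowest to the highest of the 6 libraries, the red line is the resistant mean and the blue dashed line the susceptible mean (n = 3 each), and the outer 10% at each end is shaded. The high windows of every chromosome stand at the same place in all libraries. The highest complete window has 245 kb per Mb, on chromosome 7. The shorter last window of chromosome 10 has 260 kb per Mb, and both ends of that chromosome are high.

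Windows with more covered length also held wider peaks, and a larger share of their regions was found in all 6 libraries. In the 18 windows of at least 100 kb per Mb there were 176 peaks per window with a median width of 658 bp, and 45.4% of regions were found in all 6 libraries. In the 50 windows of 20 to 50 kb per Mb there were 52.9 peaks with a median width of 517 bp, and 25.1% of regions were found in all 6. In the 13 windows under 10 kb per Mb there were 11.7 peaks with a median width of 442 bp, and 18.0% of regions were found in all 6. Covered length is the sum of the widths, so these measures are not independent and carry no test.

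The profile was close to the same in every library. Pearson's r over the 140 windows was 0.997 to 0.998 and Spearman's rho 0.989 to 0.994 for the 15 pairs of libraries, within and between groups alike. These values are a description, since all libraries share the same sequence, with its CpG content and its mappable stretches, and neighbouring windows are not independent.

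Chromosome 6 had its highest windows near 60% of its length. Peaks covered 181, 175 and 189 kb in resistant libraries and 163, 180 and 178 kb in susceptible libraries between 22 and 23 Mb. The next highest windows, from 21 to 22 Mb and from 11 to 12 Mb, had 132 ± 5.18 and 115 ± 4.45 kb. Low windows lay close by. Between 24 and 25 Mb, peaks covered only 1.16, 1.26 and 0.634 kb in resistant libraries and 0.907, 1.66 and 0.642 kb in susceptible libraries, the lowest of the 140 windows, and none of its 13 regions was found in all 6 libraries. The second lowest window of the chromosome, from 13 to 14 Mb, had 2.64 ± 0.842 kb. The longest stretch with no peak in any library, 449 kb at 6:20723977 to 21172957, ran into the high window from 21 to 22 Mb. A stretch of 340 kb without a peak, at 6:24221967 to 24561714, lay inside the lowest window. Stretches of at least 100 kb without a peak in any list numbered 40 and made up 18.5% of chromosome 6, the largest share of the 5.

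Chromosome 7 carried the highest of all complete windows, from 21 to 22 Mb, in a block that rose in steps and ended sharply. Peaks covered 250, 242 and 249 kb there in resistant libraries and 235, 243 and 251 kb in susceptible libraries, and the groups overlapped. In steps of 100 kb, covered length was at most 3.60 kb up to 21.4 Mb, 16.6 kb from 21.4 to 21.5 Mb, 41.5 kb from 21.5 to 21.6 Mb and 70.9 ± 1.88 kb from 21.6 to 21.7 Mb (means over 6 libraries). It was still 25.6 ± 1.25 kb from 22.1 to 22.2 Mb, and 1.95 ± 0.695 kb in the next 100 kb, where the block ended. The block held the widest region shared by all 6 libraries on these chromosomes, 7:21638214 to 21659670 (21457 bp), in which each library had 6 to 9 peaks that together covered 19719 to 20940 bp. The next highest windows of chromosome 7 were 129 ± 5.75 kb from 35 to 36 Mb, at the chromosome's end, and 76.8 ± 6.004 kb from 16 to 17 Mb. The lowest were 4.58 ± 1.28 kb from 31 to 32 Mb and 6.51 ± 0.706 kb from 23 to 24 Mb. The longest stretch without a peak, 246 kb, lay at 7:17758625 to 18004681, and 34 stretches of at least 100 kb made up 12.7% of the chromosome.

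Chromosome 8 had its highest windows inside the chromosome, on either side of a low middle. From 19 to 20 Mb peaks covered 245, 232 and 246 kb in resistant libraries and 221, 244 and 255 kb in susceptible libraries, and from 5 to 6 Mb they covered 199 ± 8.31 kb. A high window near the end, from 27 to 28 Mb, had 135.5 ± 5.12 kb. Between the 2 inner maxima lay the lowest windows, from 17 to 18 Mb with 4.15 ± 0.825 kb and from 16 to 17 Mb with 4.30 ± 0.688 kb. The 3 longest stretches without a peak on the chromosome were next to each other there, 429 kb at 8:15906874 to 16336046, 330 kb at 8:16487562 to 16817970 and 355 kb at 8:17069921 to 17425282. The widest region shared by all libraries was 10266 bp at 8:19283683 to 19293948, inside the highest window.

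Chromosome 9 had 2 inner maxima as well. From 15 to 16 Mb peaks covered 186, 180 and 187 kb in resistant libraries and 173, 184 and 186 kb in susceptible libraries, and from 4 to 5 Mb they covered 160 ± 6.20 kb. Within the first of these windows coverage lay in separate stretches. It was 36.0 ± 2.09 kb from 15.0 to 15.1 Mb, 4.52 ± 0.530 kb and 11.5 ± 1.02 kb in the next 2 steps of 100 kb, 45.9 ± 1.92 kb from 15.3 to 15.4 Mb, 61.0 ± 0.741 kb from 15.4 to 15.5 Mb, 22.03 ± 0.999 kb from 15.5 to 15.6 Mb and 0.387 ± 0.343 kb in the following 100 kb. The third highest window, from 22 to 23 Mb, had 132 ± 8.22 kb and lay near the end. The lowest windows were 6.32 ± 0.868 kb from 20 to 21 Mb and 10.3 ± 1.26 kb from 5 to 6 Mb, directly beside the maximum at 4 to 5 Mb. The widest shared region had 8542 bp, at 9:14430967 to 14439508, and the longest stretch without a peak 277 kb, at 9:11501046 to 11778203.

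Chromosome 10 was built the other way round, with both ends high and a low stretch behind the first. From 0 to 1 Mb peaks covered 148, 141 and 147 kb in resistant libraries and 136, 148 and 153 kb in susceptible libraries, and from 2 to 3 Mb they covered 169 ± 7.14 kb. Coverage fell off over the second part of that window, with 11.9 ± 1.56 kb from 2.5 to 2.6 Mb, 1.496 ± 0.774 kb and 1.21 ± 0.455 kb in the next 2 steps, 9.03 ± 0.632 kb from 2.8 to 2.9 Mb and at most 2.73 kb in each step from there to 3.5 Mb. From 3 to 4 Mb and from 4 to 5 Mb the windows had 13.8 ± 2.13 and 13.0 ± 1.94 kb, and from 5 to 6 Mb 10.2 ± 1.70 kb, the lowest of the chromosome. At the other end coverage climbed from 18 to 19 Mb (173 ± 9.67 kb) and was highest in the last 1 Mb, with 274, 270 and 279 kb in resistant libraries and 257, 277 and 281 kb in susceptible libraries. The widest region shared by all libraries, 12083 bp at 10:19482833 to 19494915, lay in this last 1 Mb, as did the highest-ranked shared region by score, at 10:19579263 to 19586400. That rank was a tie at 3100, broken by position. On the other chromosomes the same tie gave 6:34949576 to 34950490, 7:24324210 to 24325446, 8:24180893 to 24184110 and 9:22832606 to 22834246. Chromosome 10 had the fewest long stretches without a peak, 9 of at least 100 kb that made up 6.65% of its length, the longest with 280 kb at 10:8795930 to 9076056.

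Ends and middle were then compared within each library, taking the outer 10% of a chromosome at each end against the remaining 80%. On chromosome 10 the ends had 177, 172 and 178 kb per Mb in resistant libraries and 163, 180 and 181 kb per Mb in susceptible libraries. The middle had 45.6, 43.1 and 41.8 kb per Mb in resistant libraries and 39.3, 44.5 and 43.7 kb per Mb in susceptible libraries. The ends thus exceeded the middle by 132 ± 5.09 kb per Mb, a ratio of 4.08, and held 49.3 to 51.6% of the covered length of the chromosome. On the other chromosomes the excess was smaller by a wide margin. It was 14.1 ± 1.30 kb per Mb on chromosome 9 (68.9 ± 3.12 at the ends and 54.8 ± 1.98 in the middle) and 15.2 ± 1.05 kb per Mb on chromosome 7 (51.1 ± 2.76 and 35.9 ± 1.86). On chromosome 6 it was 8.81 ± 1.42 kb per Mb (45.5 ± 2.73 at the ends and 36.7 ± 1.76 in the middle), and on chromosome 8 it was 3.93 ± 1.28 kb per Mb (59.2 ± 3.14 and 55.2 ± 2.45). All 5 differences were positive in 6 of 6 libraries (exact sign-flip permutation test, adjusted p = 0.0312, n = 6). The size, and on chromosome 6 also the sign, depended on where the ends were set. With the outer 20% at each end the difference was -7.46 kb per Mb on chromosome 6, 2.62 on chromosome 7, 23.3 on chromosome 8, 23.9 on chromosome 9 and 92.7 on chromosome 10. With the outer 5% it was 10.8, 26.9, 9.24, 29.5 and 155 kb per Mb on chromosomes 6 to 10, so that chromosome 10 led under each definition and the order of the others changed. On chromosome 8 the difference turned to -0.946 kb per Mb when only peaks at or above the pooled median score were kept. With those peaks no chromosome passed the test (adjusted p = 0.0521 to 0.156 over the 5 chromosomes, exact sign-flip permutation tests, n = 6). This test allows no unadjusted p below 0.0312 with 6 libraries, and adjustment lifts that value past 0.05 when other chromosomes do not reach it. Chromosomes 7, 9 and 10 had the adjusted p of 0.0521, and chromosome 10 kept an excess of 110 kb per Mb.

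The 2 ends of a chromosome were unequal. The last 10%, at the high coordinates, exceeded the first 10% on all 5 chromosomes and in every library. On chromosome 8 the last end had 93.5 ± 5.12 kb per Mb and the first end 24.8 ± 1.42 kb per Mb. On chromosome 6 the last end had 70.2 ± 4.15 kb per Mb and the first end 20.8 ± 1.48, on chromosome 7 70.8 ± 3.59 and 31.4 ± 2.25, on chromosome 9 88.7 ± 4.23 and 49.1 ± 2.89, and on chromosome 10 206 ± 8.61 and 145 ± 4.82 (n = 6, exact sign-flip permutation tests, adjusted p = 0.0312). On chromosomes 6 to 9 the first end was below the middle, with differences of -15.9 ± 1.04, -4.53 ± 1.24, -30.4 ± 1.503 and -5.74 ± 1.74 kb per Mb, and on chromosome 10 it was above it by 102 ± 3.49 kb per Mb (adjusted p = 0.0312, the same exact test). The excess of ends over middle on chromosomes 6 to 9 was therefore an excess of 1 end.

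Summed with its sign over the chromosomes of a class, this inequality differed from that of the other classes. Opposite signs within a class cancel in such a sum, so it does not tell how unequal the ends of single chromosomes were. The tests cover the spread between libraries, not between chromosomes. The last end minus the first end, pooled over the chromosomes of a class, was 50.7 ± 2.70 kb per Mb on chromosomes 6 to 10, against -9.26 ± 0.449 kb per Mb on chromosomes 1 to 5 and 11.5 ± 1.60 kb per Mb on chromosomes 11 to 28 (n = 6, exact sign-flip permutation tests of the difference, adjusted p = 0.0312). The log2 ratio of ends to middle was 0.70 ± 0.01 on chromosomes 6 to 10, against 1.11 ± 0.04 on chromosomes 1 to 5 and 0.38 ± 0.02 on chromosomes 11 to 28 (exact sign-flip permutation tests, adjusted p = 0.0312, n = 6). The pooled value of chromosomes 6 to 10 was set largely by chromosome 10, whose ratio was 2.03 ± 0.05. Chromosome 7 had 0.51 ± 0.02, and chromosomes 6, 8 and 9 had 0.31 ± 0.04, 0.10 ± 0.03 and 0.33 ± 0.02, below the value of chromosomes 11 to 28. The direction of a chromosome's coordinates is that of the genome build, and where the centromere lies was not analysed here.

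**Figure D3:**
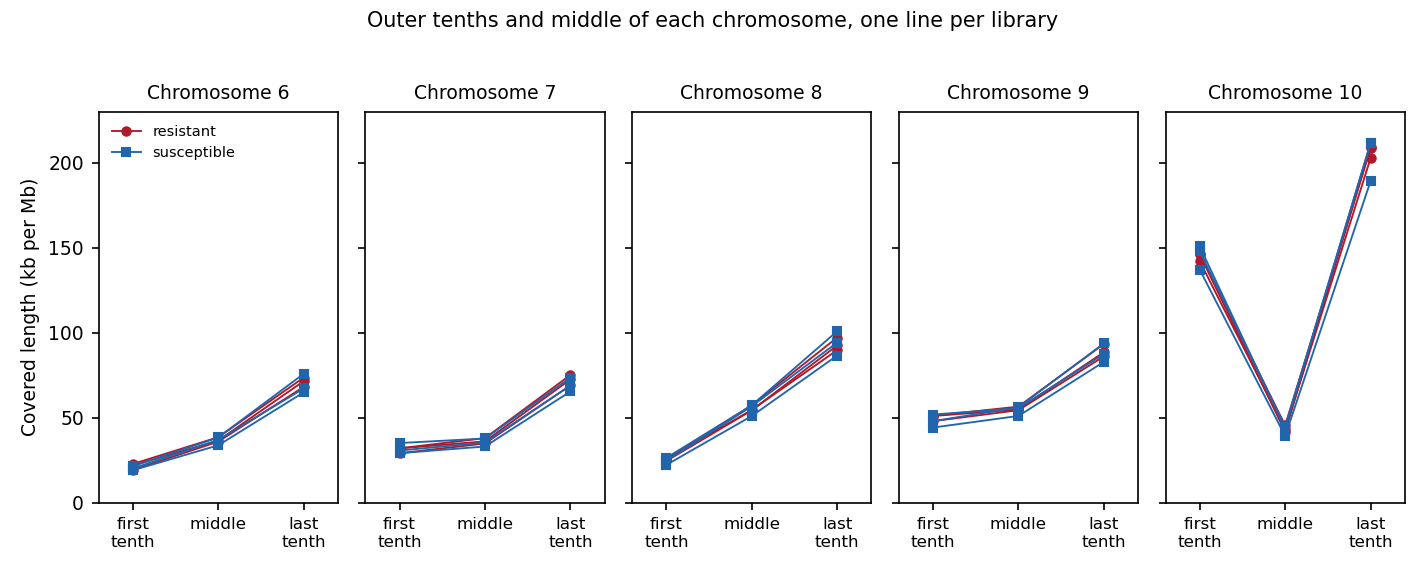
Covered length (kb per Mb) in the first 10%, the middle 80% and the last 10% of chromosomes 6 to 10, with 1 line per library (red circles resistant, blue squares susceptible). On chromosomes 6 to 9 the lines climb to the last end (88.7 against 49.1 kb per Mb on chromosome 9), and on chromosome 10 both ends stand above the middle.

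The excess at the last end reached inwards by different lengths. On chromosome 7 the last 1 Mb had 110 ± 4.20 kb, the second Mb from the end 91.7 ± 5.59 kb and the third 26.1 ± 3.46 kb. On chromosome 9 these steps had 131 ± 4.92, 73.3 ± 5.91 and 9.25 ± 0.884 kb. On both chromosomes the outer 2 Mb were high and the third was low, and on chromosome 9 the fifth Mb was high again with 84.3 ± 4.52 kb. On chromosome 8 the last 1 Mb itself was not the highest, with 50.7 ± 6.35 kb against 156 ± 5.97 kb in the Mb before it. On chromosome 6 the last 1 Mb had 93.3 ± 5.03 kb and the fourth Mb from the end 86.2 ± 4.36 kb, with 39.2 ± 3.62 kb in the third. At the first end the outermost 1 Mb had 12.1 ± 1.73 kb on chromosome 6, 29.9 ± 2.14 kb on chromosome 7, 21.5 ± 1.85 kb on chromosome 8, 45.1 ± 3.13 kb on chromosome 9 and 146 ± 5.77 kb on chromosome 10.

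Width, score and sharing followed coverage along chromosome 10. Its last end had a median peak width of 691 bp and a median score percentile of 61.8, and 266 of its 532 regions were found in all 6 libraries. Its first end had a median width of 638 bp and a percentile of 59.3, with 195 of 416 regions (46.9%) in all 6. The middle had 553.5 bp and a percentile of 43.7, with 29.8% of regions in all 6. Of the 23 regions of chromosome 10 with a peak at or above 3100 in every library, 16 (69.6%) lay in the outer 10% at either end, against 3 of 18 on chromosome 6, 2 of 24 on chromosome 7, 1 of 19 on chromosome 8 and 3 of 26 on chromosome 9. The other chromosomes did not all show this. On chromosome 6 the last end, though higher in coverage than the middle, had narrower peaks (537 bp against 550 bp), a lower percentile (43.7 against 46.4) and a smaller share of regions in all 6 libraries (28.3 against 30.7%). On chromosome 8 the last end had 583 bp and a percentile of 49.1, and the middle 597 bp and 51.3. The first end of chromosome 6, low in coverage, had 482 bp, a percentile of 39.4 and 21.9% of regions in all 6 libraries. These values carry no test.

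Sharing of peaks over the 6 lists was counted on merged regions, made by joining overlapping or touching peaks of all lists. The 59010 peaks formed 15135 regions that spanned 11.4 Mb. A peak of every library was present in 5001 regions (33.0%, 95% Clopper-Pearson interval 32.3 to 33.8%, which covers counting error only), and a peak of a single library in 3929 (26.0%). On chromosomes 1 to 5 the share found in all 6 libraries was 28.1%, and on chromosomes 11 to 28 it was 41.9%. Chromosome 10 had 36.6% (34.7 to 38.4%), chromosome 9 35.1% (33.3 to 36.95%) and chromosome 8 36.0% (34.4 to 37.7%). Chromosome 7 had 29.1% (27.5 to 30.6%) and chromosome 6 29.6% (28.02 to 31.2%). The shares of chromosomes 8 to 10 lay above those of chromosomes 6 and 7. The intervals count regions, not libraries, and the difference between chromosomes was not tested.

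Shared regions were the longer and the stronger ones. Regions of all 6 libraries had a median length of 945 bp and made up 53.9% of the span, and regions of 1 library had 387 bp. Of the 59010 peaks, 34136 (57.8%) lay in regions of all 6 libraries, with a median width of 699 bp and a median score percentile of 68.1. Peaks of regions found in 5 libraries had 504 bp and the 36.9 percentile, those found in 3 had 448 bp and the 23.6 percentile, and those found in 1 had 387 bp and the 14.0 percentile. A region of several libraries is at least as long as any of its peaks by construction, whereas the widths and percentiles are those of single peaks. Sharing was defined by overlap of these same peaks, so width and sharing are not independent, and the values carry no test.

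**Figure D4:**
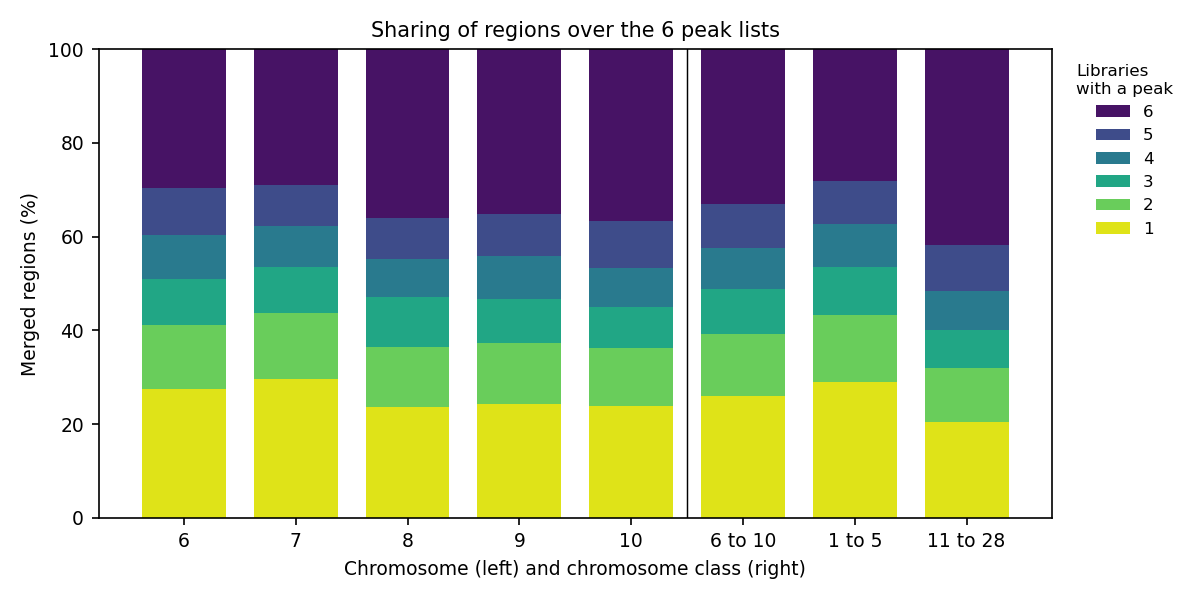
Share of merged regions (%) by the number of libraries with a peak in them, for each of chromosomes 6 to 10 and for 3 classes of chromosomes. The share found in all 6 libraries is 29.1 to 29.6% on chromosomes 6 and 7, 35.1 to 36.6% on chromosomes 8 to 10, and 33.0% over the 5, between 28.1% on chromosomes 1 to 5 and 41.9% on chromosomes 11 to 28.

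Libraries differed in how many regions they held alone. Resistant replicates 1 to 3 held 1030, 783 and 407 regions found in no other library, and susceptible replicates 1 to 3 held 376, 926 and 407. The 3 libraries with the most peaks, resistant replicates 1 and 2 and susceptible replicate 2, also held the most regions of their own. Conversely, of the 1403 regions found in exactly 5 libraries, the missing one was resistant replicate 1, 2 or 3 in 162, 172 and 320 regions and susceptible replicate 1, 2 or 3 in 229, 188 and 332. The part of list length and of depth in these counts was not tested. The Jaccard index divides the length covered in both libraries of a pair by that covered in at least 1 of them. It was 0.625 among resistant pairs, 0.627 among susceptible pairs and 0.625 between groups (means of 3, 3 and 9 pairs), and ran from 0.611 to 0.634 over the 15 pairs.

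The question the design asks, whether methylation differed between resistant and susceptible chickens, was put to each chromosome. On chromosome 10, covered length in kb per Mb averaged 69.98 ± 1.71 in resistant and 68.9 ± 4.25 in susceptible libraries (SD, n = 3 each, as below). On chromosome 9 it averaged 58.2 ± 1.39 in resistant and 57.0 ± 3.02 in susceptible libraries, and on chromosome 8 56.2 ± 1.67 in resistant and 55.9 ± 3.67 in susceptible libraries. Chromosome 7 averaged 39.4 ± 1.71 in resistant and 38.5 ± 2.58 in susceptible libraries, and chromosome 6 38.9 ± 1.504 in resistant and 38.1 ± 2.53 in susceptible libraries. None of these 5 differences, 0.321 to 1.15 kb per Mb, exceeded the spread between replicates (two-sided exact permutation test, p = 0.6 to 0.9, adjusted p = 0.9 over 5 chromosomes, where 3 libraries against 3 cannot go below 0.1). All 5 turned negative without susceptible replicate 1, the lowest library throughout, at -1.76 to -0.325 kb per Mb. Without resistant replicate 3 and susceptible replicate 3 they were 1.53 to 2.67 kb per Mb.

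Peak number per Mb was higher in the resistant mean on all 5 chromosomes, by 3.12 to 4.91 peaks per Mb, and this too lay within the spread (exact permutation test, p = 0.4 to 0.6, adjusted p = 0.6, n = 3 each). Without resistant replicate 1 the difference on chromosome 8 was -0.313 peaks per Mb. With lists of equal length the differences were 0.773, 0.405, -0.174, 0.356 and 0.619 peaks per Mb on chromosomes 6 to 10. The log2 ratio of ends to middle over chromosomes 6 to 10 differed by -0.00301 between resistant and susceptible libraries (exact permutation test, p = 0.6, n = 3 each).

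The 1 Mb windows were compared with limma over all 1002 windows of the genome. Of the 143 windows on chromosomes 6 to 10, 0 had an adjusted p under 0.05, and the same held for all windows of the genome (0%). An unadjusted p under 0.05 was given to 1 of the 143 windows (0.699%), against 0.499% of all windows. The log2 difference, resistant minus susceptible, ran from -0.23 to 0.29 with a median of 0.02, and it was above 0 in 98 of the 143 windows. Over all windows the median was 0.01, and 570 of 1002 were above 0.

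The window with the lowest p was chromosome 6 from 15 to 16 Mb. Peaks covered 24.3, 21.4 and 20.9 kb there in resistant libraries and 16.2, 18.8 and 19.0 kb in susceptible libraries, so that the groups did not overlap. The log2 difference was 0.29 ± 0.12 (SE), with an unadjusted p of 0.0272 and an adjusted p of 0.999 from limma over all windows. Groups stood apart with resistant libraries higher in 4 windows (2.80%, against 2.20% of all windows) and with resistant libraries lower in 1 (0.699%, against 1.40%). The other 3 higher windows were chromosome 7 from 34 to 35 Mb (77.5 kb in resistant and 72.5 kb in susceptible libraries on average), chromosome 9 from 1 to 2 Mb (28.6 kb in resistant and 25.4 kb in susceptible libraries) and chromosome 10 from 8 to 9 Mb (51.2 kb in resistant and 46.4 kb in susceptible libraries). The lower one was chromosome 6 from 10 to 11 Mb, with 51.4, 51.7 and 49.4 kb in resistant libraries and 52.9, 60.3 and 52.6 kb in susceptible libraries. The window on chromosome 7 was named for its count after its values were seen. The remaining windows of the 10 with the lowest p had overlapping groups and log2 differences of -0.23 to 0.20. They lay on chromosome 7 from 27 to 28 Mb, chromosome 6 from 6 to 7 Mb and from 30 to 31 Mb, chromosome 10 from 6 to 7 Mb, and chromosome 9 from 17 to 18 Mb and from 19 to 20 Mb.

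Single regions that followed the groups were few and mostly weak. All 3 resistant and 0 susceptible libraries had a peak in 94 of 15135 regions (0.621%, against 0.577% of the regions of all chromosomes). The reverse was counted in 62 (0.410%, against 0.320%). By chromosome the resistant-only and susceptible-only regions numbered 27 and 15 on chromosome 6, 25 and 4 on chromosome 7, 15 and 24 on chromosome 8, 13 and 8 on chromosome 9, and 14 and 11 on chromosome 10. In that order the resistant-only shares of regions were 0.849, 0.735, 0.460, 0.489 and 0.532%, against 0.577% over all chromosomes. The susceptible-only shares were 0.471, 0.118, 0.736, 0.301 and 0.418%, against 0.320%. These shares by chromosome carry no test. Of the 1475 regions found in exactly 3 libraries, whichever they were, these 156 made up 10.6% (95% Clopper-Pearson interval 9.05 to 12.3%). The same share over all chromosomes, chromosomes 6 to 10 included, was 9.46% (8.85 to 10.1%). Both intervals count regions, not libraries, so they do not test a difference between the groups. The weakest of a region's 3 peaks stood at a median percentile of 10.96 where the region was resistant-only and 9.37 where it was susceptible-only, so that in most of them at least 1 peak lay low in its list. When only peaks at or above the pooled median score were kept, 41 resistant-only and 28 susceptible-only regions were counted. The share over all chromosomes at that score is not given here, so these counts are no measure of a group difference.

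The resistant-only region with the highest lowest percentile was 9:1099071 to 1100047, with scores of 269.9, 338.5 and 232.0 in resistant replicates 1 to 3. Its nearest susceptible peak was 873 bp away. The next was 6:22522462 to 22523253, with scores of 173.1, 262.1 and 182.6 and the nearest susceptible peak at 2678 bp, inside the highest window of chromosome 6. It was followed by 8:18941807 to 18942753, 10:1502691 to 1503286 and 6:34025979 to 34026843, with susceptible peaks no closer than 1270, 1435 and 3851 bp. The susceptible-only region with the highest lowest percentile was 6:6487192 to 6487858. Its peaks scored 315.7, 366.6 and 143.7 in susceptible replicates 1 to 3, and its nearest resistant peak was 847 bp away. The next was 6:16204446 to 16205490, with scores of 203.7, 165.2 and 142.5 and the nearest resistant peak at 3953 bp. The others were 10:17335057 to 17335958, 6:2218223 to 2219126 and 8:13666214 to 13666880, where resistant peaks lay 284, 6492 and 8271 bp away. These regions carry no gene names, since no annotation of galGal4 was used here.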

How the data were processed

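Per the labels' protocols, liver was frozen, its DNA extracted with phenol-chloroform, and paired ends read on a HiSeq sequencer. Cutadapt, Bowtie2 and galGal4 are named in the submitters' processing notes, with tool versions not given in the sources used here. Deposited by the authors was 1 peak list per MeDIP library, and the deposited names of the lists and peaks record a separate MACS call per library, each set against its numbered input. The deposited score was read from its values as the caller's -log10 p-value multiplied by 10, with a minimum of 80. Depth is unknown.

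Groups were taken from the source label, and replicate numbers follow deposition order and pair nothing. The peaks, comparisons and lists were chosen with earlier results of these data known. Python 3.11.15 (numpy 2.4.6, pandas 2.3.3, scipy 1.17.1) gave covered length, width, spacing, score percentile within a list, merged regions and exact tests. Between groups these were two-sided permutation tests of means, and within libraries they were two-sided sign-flip tests, both with Benjamini-Hochberg adjustment within each family. Windows of 1000 kb were fitted genome-wide with limma 3.58.1 (R 4.3.3, robust, with trend) on log2(kb per Mb + 1), for windows averaging at least 1 kb. The merging and the window fit were tested on simulated data.

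The comparisons of first end, last end, neighbouring chromosomes, spacing under 1 kb, peaks per Mb between classes and the end-to-middle ratio between classes were not among those listed at the start. Named on each chromosome were the 3 highest and 2 lowest complete windows, the longest stretch without a peak, the widest region of all libraries and the region whose lowest percentile was highest. Named over all 5 were the 10 windows of lowest p and the 5 top group-only regions in each direction. The settings varied were the score minimum (the pooled median, 193.59), list length (the 55599 top peaks of each), the libraries kept (each left out in turn), the 4 libraries with low Z coverage, other definitions of the ends (5%, 20%, 2 Mb), joining peaks within 500 bp, fixed windows of 1000 bp, a pseudocount of 10 kb, no window filter, windows of 500 kb, a fit without Z and W, and unweighted class means.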

Additional observations from a re-analysis of the deposited data

How the results depend on the processing

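Because depth is unknown, a missing peak is no measure of low methylation, and lengths are lower bounds. Over all results that answer a comparison and all alternatives, 147 values kept their side of the threshold or their size, 95 no longer passed, 69 moved and 21 changed sign. Many of the 95 could not have passed, since with 5 libraries the smallest exact sign-flip p is 0.0625 and with the 4 libraries of low Z coverage it is 0.125. For the remaining changes the cause was not tested. Among the named windows and regions 337 values stayed within their spread or size and 28 moved. Resistant libraries could not be paired with susceptible ones, because the labels record no link between samples of the 2 groups.

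With every list trimmed to equal length by score, which removes more peaks from the longer lists, the resistant minus susceptible difference in covered length turned to -0.602, -0.285, -1.09, -0.676 and -0.684 kb per Mb on chromosomes 6, 7, 8, 9 and 10. The difference in peak number was 0.773, 0.405, -0.174, 0.356 and 0.619 per Mb on these chromosomes, the difference in the log2 ratio of ends to middle turned to 0.00133, and 5 windows had an unadjusted p under 0.05 in limma. At or above the pooled median score the difference in covered length on chromosome 6 was -0.277 kb per Mb and that in the end ratio 0.0120. Ends minus middle was then 1.47, 5.88, -0.946, 6.71 and 110 kb per Mb on chromosomes 6 to 10, the share of regions in all 6 libraries 33.7, 35.8, 39.1, 37.9 and 40.9%, resistant-only regions numbered 41 and susceptible-only 28, and 8 windows had an unadjusted p under 0.05 in limma. Chromosomes 6 to 10 minus chromosomes 1 to 5 and minus chromosomes 11 to 28 were then 96.6 and -77.9 bp in width, -9495 and 1979 bp in spacing, and 0.946 and -2.78 in percentile. With the outer 20% as ends, ends minus middle was -7.46, 2.62, 23.3, 23.9 and 92.7 kb per Mb on chromosomes 6 to 10, with the outer 5% 10.8, 26.9, 9.24, 29.5 and 155, and with the outer 2 Mb 8.18, 25.01, 6.90, 13.8 and 132. Unweighted class means differed by 25.8 and -88.4 kb per Mb. The shared fraction was 30.6% on chromosome 7 and 38.7% on chromosome 10 with peaks within 500 bp joined, and 33.4, 33.5, 39.8, 40.4 and 42.2% in fixed windows of 1000 bp. Unadjusted limma calls numbered 4 in windows of 500 kb and 2 in a fit without Z and W. The count of adjusted calls stayed at 0 under every alternative run for it. Here and below, counts of unadjusted calls and of group-only regions under an alternative stand without their share over all chromosomes. They are therefore no measure of a group difference.

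In the 4 libraries with low Z coverage, ends minus middle was 9.57, 15.6, 4.44, 14.5 and 130.05 kb per Mb on chromosomes 6 to 10. Chromosomes 6 to 10 minus chromosomes 1 to 5 and minus chromosomes 11 to 28 were 24.2 and -57.1 kb per Mb in covered length, 47.75 and -60.75 bp in width, -4086 and 1324 bp in spacing, and 3.78 and -7.73 in score percentile. Resistant-only regions numbered 525 and susceptible-only 289, since fewer libraries loosen the definition, and 3 windows had an unadjusted p under 0.05.

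Leaving out 1 library gave, for resistant minus susceptible covered length, -0.516 to 2.004 on chromosome 6, -0.325 to 2.26 on chromosome 7, -1.76 to 1.68 on chromosome 8, -0.588 to 2.17 on chromosome 9 and -1.43 to 2.34 kb per Mb on chromosome 10. All 5 turned without susceptible replicate 1, and chromosomes 6 and 8 also without resistant replicate 1. Peak number differed by 1.64 to 7.39, 0.777 to 7.12, -0.313 to 7.10, 2.17 to 8.92 and 1.19 to 9.65 per Mb on chromosomes 6 to 10 (negative on chromosome 8 without resistant replicate 1), and the end ratio -0.00921 to 0.00381 (positive without resistant replicate 1 or susceptible replicate 2). Ends minus middle was 8.52 to 9.21, 14.9 to 15.4, 3.45 to 4.18, 13.8 to 14.4 and 131 to 134 kb per Mb on chromosomes 6 to 10. The differences from chromosomes 1 to 5 and from chromosomes 11 to 28 were 24.2 to 24.8 and -58.5 to -57.5 kb per Mb in covered length, 48.9 to 51.3 and -65.6 to -62.8 bp in width, -4426 to -4187 and 1357 to 1419 bp in spacing, and 3.75 to 3.99 and -7.76 to -7.53 in percentile. Shares in all remaining libraries were 32.1 to 33.4, 31.3 to 32.9, 38.1 to 39.7, 37.6 to 38.6 and 38.8 to 40.6% on chromosomes 6 to 10. Resistant-only regions numbered 188 to 343, susceptible-only 100 to 192, and windows with an unadjusted p under 0.05 0 to 3 in limma.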

Other observations

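Regions found in exactly 2 libraries also leaned to the longer lists. Resistant replicates 1 and 2 alone shared 247 regions on chromosomes 6 to 10, and resistant replicate 1 with susceptible replicate 2, from different groups, shared 232. The Jaccard index varied more between chromosomes than between kinds of pairs. It was 0.586 to 0.612 over the 15 pairs on chromosome 6 and 0.631 to 0.671 on chromosome 10. The most similar pair on chromosome 10 was resistant replicate 3 with susceptible replicate 3, which also stood apart on Z, and the same held on chromosome 7. On chromosome 6 it was susceptible replicates 2 and 3, on chromosome 8 resistant replicate 2 with susceptible replicate 1, and on chromosome 9 susceptible replicates 1 and 2.

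Regions with a peak at or above a score of 3100 in every library lay in the outer 10% of chromosomes in 22.7% of cases on chromosomes 6 to 10, against 53.0% on chromosomes 1 to 5 and 36.7% on chromosomes 11 to 28. This was counted after the ends had been described and was not tested.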
